A study of Mus musculus with 4 samples.

Results

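Genes shorter than 200 bp that lie within the exons of 1 longer gene on the other DNA strand were described in 4 RNA-seq libraries of mouse T-helper 2 (Th2) cells. A gene was taken as a member when at least 80% of its exon length was covered by exons of the longer gene, here called the host, and when it lay on an autosome. The rule used only the gene coordinates in the deposited count files, and 213 of the 50600 genes met it, out of 6094 genes of that length. They sat in 188 hosts, of which 13 held 2 or more members, so 38 members shared a host. The labels describe primary cells from C57BL/6NJ mice, and names in the file headers give 72 h and a sort. All 4 libraries were biological replicates of this 1 group, each with a biosample of its own but with 1 donor identifier for all, and age and sex were not given. Total RNA-seq is the assay named in the labels, whereas the name of the linked library protocol speaks of poly(A) RNA. With 1 group, the comparisons are between a member and its host, between members and other genes, and between replicates.

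Gene pairs that overlap on opposite strands are common in mammalian genomes, and RNA from the strand opposite a gene is called antisense RNA. Many short nested genes are microRNA (miRNA) loci, whose hairpin is cut out of a longer transcript and trimmed to a mature strand that pairs with target mRNAs through its seed, bases 2 to 8. Others are small nuclear RNAs (snRNAs) and small nucleolar RNAs (snoRNAs), which work in splicing and in the modification of ribosomal RNA. Mature miRNAs are shorter than the fragments of a standard mRNA library. A count on a miRNA gene here is therefore read as a count of fragments over its locus, not as a level of the mature miRNA.

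Of the 213 members, 140 are annotated as miRNAs, 26 as miscellaneous RNAs, 14 as snRNAs, 12 as snoRNAs, 5 as ribosomal RNAs and 5 as protein-coding genes, and the other 11 belong to 5 further classes. The shortest member has 39 bp and the median is 101 bp, and the median host was 3397 bp long. In all, 195 members lay wholly inside exons of the host. In the GENCODE M21 transcripts, the reverse complement of 190 members was found unbroken in a transcript of the host.

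Mature sequences are shown for miRNA members described below that matched RefSeq by symbol, to make clear which loci the values refer to. The most counted miRNA loci carry Gm symbols and are not among them. Mir1905 is included for its likeness to Gm22721, Mir3082 for its dependence on length and Mir142 for its contrast with the others. Capitals mark the seed. Of the 140 miRNA members, 63 matched, and these sequences are RefSeq's on build GRCm38.p6.
mmu-miR-762: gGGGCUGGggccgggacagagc
mmu-miR-6363: uGUAGACUggacuguccucaaa
mmu-miR-6340: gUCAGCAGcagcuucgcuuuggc
mmu-miR-6385: gCAAGGAUgacagagaggaag
mmu-miR-130c: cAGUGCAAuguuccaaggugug
mmu-miR-3082-5p: gACAGAGUgugugugucugugu
mmu-miR-3082-3p: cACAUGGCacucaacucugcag
mmu-miR-1905: cACCAGUCccaccacgcgguag
mmu-miR-142a-5p: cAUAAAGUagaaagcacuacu
mmu-miR-142a-3p: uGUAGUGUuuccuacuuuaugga
No seed occurs in more than 1 of these 10 sequences. The miR-762 sequence lies at chr7:127708534-127708555 on the plus strand, opposite Bcl7c. Those of miR-6363 (chr16:50727204-50727225, plus strand) and miR-6340 (chr2:173701098-173701120, minus strand) lie opposite Dubr and Rab22a. The miR-1905 sequence, at chr3:88536311-88536332 on the minus strand, lies opposite coding sequence of Mex3a. The miR-142a arms lie at chr11:87756867-87756887 and chr11:87756903-87756925 on the plus strand, opposite the gene Mir142b.

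A second set of sequences shows why some members cannot be treated as unrelated. Each is the whole member, wholly opposite coding sequence of its host, from the GENCODE M21 transcripts (GRCm38). The hosts are H2afj, H2afx and Hist1h2ae, which encode H2A histones, the pair Mex3d and Mex3a, which encode RNA-binding proteins, and the pair Foxf1 and Foxf2, which encode forkhead transcription factors. Capitals mark bases that differ from the first sequence of the set in a global alignment, or that have no partner there.
Gm44364 (H2afj): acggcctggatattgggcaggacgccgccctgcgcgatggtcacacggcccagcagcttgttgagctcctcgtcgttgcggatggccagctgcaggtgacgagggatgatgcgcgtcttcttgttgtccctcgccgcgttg
Gm44335 (H2afx): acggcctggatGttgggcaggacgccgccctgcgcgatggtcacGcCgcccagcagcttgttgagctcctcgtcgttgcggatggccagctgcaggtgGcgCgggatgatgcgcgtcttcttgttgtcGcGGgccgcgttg
Gm44394 (Hist1h2ae): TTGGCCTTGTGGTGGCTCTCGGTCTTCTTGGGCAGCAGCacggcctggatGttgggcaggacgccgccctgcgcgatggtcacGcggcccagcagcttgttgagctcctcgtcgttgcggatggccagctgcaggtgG
Gm22721 (Mex3d): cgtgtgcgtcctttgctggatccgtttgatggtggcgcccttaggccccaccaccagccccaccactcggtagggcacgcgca
Mir1905 (Mex3a): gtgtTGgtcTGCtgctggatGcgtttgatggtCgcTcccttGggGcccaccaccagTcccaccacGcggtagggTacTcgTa
Gm27530 (Foxf1): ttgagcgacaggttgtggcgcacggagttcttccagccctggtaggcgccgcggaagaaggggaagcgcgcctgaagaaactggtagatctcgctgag
Gm27516 (Foxf2): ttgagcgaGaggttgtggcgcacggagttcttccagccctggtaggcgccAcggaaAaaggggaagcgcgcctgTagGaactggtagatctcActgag
Gm44364 (chr6:136808543-136808683, minus strand) and Gm44335 (chr9:44334965-44335105, minus strand) were identical at 133 of 141 aligned bases. Gm44394 (chr13:23570726-23570863, plus strand) matched Gm44364 at 96 of 99 aligned bases. Mir1905 (chr3:88536301-88536382, minus strand) matched Gm22721 (chr10:80382302-80382384, plus strand) at 67 of 82 bases, and Gm27516 (chr13:31626446-31626543, minus strand) matched Gm27530 (chr8:121084609-121084706, minus strand) at 92 of 98. The 9 members of the H2A group that include Gm44394 are identical to one another over their whole length.

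Total gene counts were 1780682, 1857433, 1446040 and 1274431 in replicates 1 to 4, and a count of 0 in a library allows up to 3 counts, or 1.62 to 2.35 counts per 1000000 (CPM). This limit and the intervals given cover only counting error. The authors counted with strand option 1, and the sources used here do not give the strand that the library kit keeps. Of the 13 mitochondrial mRNA genes, mt-Nd6 alone lies on its strand, and it had 38990 to 49626 counts per kb against at most 2853 on any of the other 12. For every pair below, RNA of the member and RNA of the host read on the other strand cannot be told apart from these counts. A count of a member or host is therefore a count of fragments assigned to it under option 1. It is not shown to be RNA of the named gene, and whether option 1 is opposite to the library was not tested. The 7 T cell markers fixed for the cells (Cd3e, Cd3d, Cd3g, Cd4, Trac, Trbc1, Trbc2) were all counted, with sums of 348, 188, 67 and 451, and the Th2 markers Gata3, Il4, Il5 and Il13 summed to 323, 204, 157 and 362. Markers of CD8 and natural killer cells summed to 0 to 2 counts, those of granulocytes to 0, those of red cells to 11 to 32 (all on Alas2) and those of B cells to 2 to 41 (all but 1 of them on Cd79a). The 5 myeloid markers summed to 542 to 838, nearly all on Csf1r, with Lyz2, Itgam and Adgre1 at 0.

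Short nested genes were counted more often than other genes of their length in every library. At least 1 count was found on 36.6%, 43.2%, 36.6% and 34.7% of the 213 members in replicates 1 to 4, a mean of 37.8% ± 3.71 (SD, n = 4). Short genes that shared exon bases with an opposite gene but did not meet the rule (83 genes) were counted in 22.6% ± 2.06 of cases. This class takes in genes whose only opposite gene is shorter than they are, so short hosts of members can be in it. Those opposite an intron (1016 genes) were counted in 11.5% ± 3.30 of cases. Short genes with no gene on the other strand (4782) reached only 0.789% ± 0.177. The classes kept this order in 4 of 4 libraries and no 2 of the 4 overlapped. Short genes outside the members that share exon sequence with a gene of their own strand (658, counted across those classes) reached 0.114% ± 0.0760. The counting command set no option to count a fragment that overlaps 2 genes of 1 strand, so this class could lose fragments. How far this sets its low value was not tested, and its difference from the members is a description only. The members exceeded the 4 classes by 15.2, 26.3, 37.0 and 37.7 percentage points, and did so in every library. The exact sign-flip permutation test (two-sided) gave p = 0.13 for each, also after Benjamini-Hochberg adjustment over the 4 comparisons, which is the smallest p that 4 libraries allow.

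**Figure D1:**
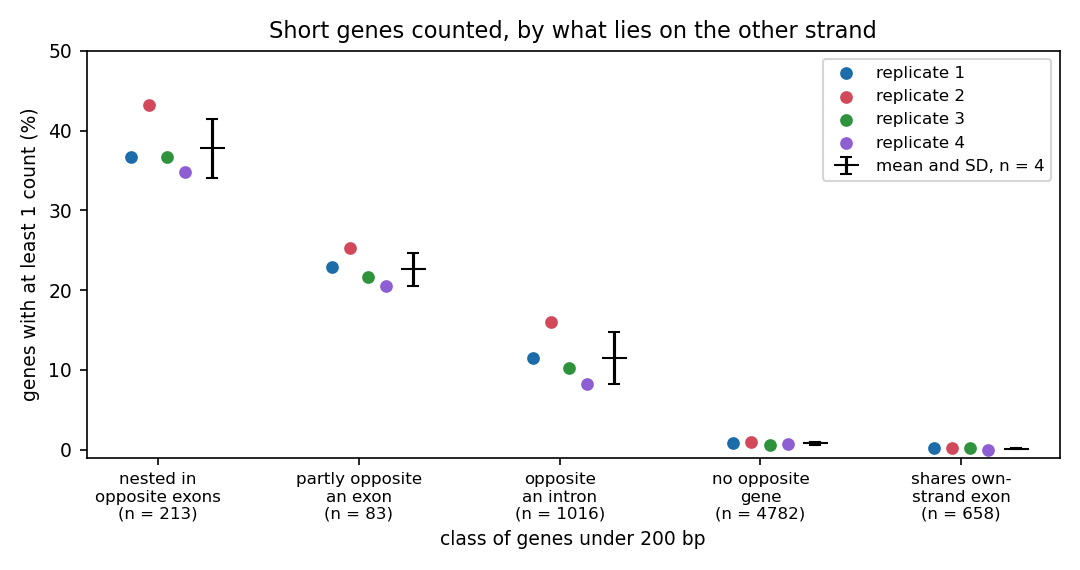
Share of genes under 200 bp with at least 1 count (y axis, percent) in each library (coloured points) for 5 classes of short gene, with the mean and SD over the 4 libraries (black). The members lie between 34.7% and 43.2%, and genes with no gene on the other strand lie under 1%. The class partly opposite an exon also takes in genes whose only opposite gene is shorter than they are.

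Over the 4 libraries, 95 members (44.6%) had at least 1 count, against 32.8% of all genes. Of these, 66 had one in every library, and 118 members had none. A mean of at least 10 counts was reached by 59 members, or 27.7%, against 15.3% of all genes, 0.544% of the other genes under 200 bp and 51.1% of nested genes of 200 bp or more. Members thus reached that level more often than the average gene and less often than the longer nested genes, as a description of these libraries. Together they held 0.546% (95% Wilson interval 0.535 to 0.557), 0.689% (0.678 to 0.701), 0.622% (0.609 to 0.635) and 0.468% (0.457 to 0.480) of all counts in replicates 1 to 4, a mean of 0.581% ± 0.0955 (SD, n = 4). The counts were concentrated. The 15 most counted members took 72.2% to 77.3% of all member counts in each library, and Gm22953, Gm44364 and Gm24157 alone took 42.6% to 45.4%.

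The 3 leading members are all annotated miRNA loci that lie mostly or wholly opposite coding sequence. Gm22953 (chr2:121450670-121450770, minus strand, 101 bp) lies in Serf2, which encodes a small protein that promotes protein aggregation. It had 1826, 2419, 1749 and 1070 counts in replicates 1 to 4, while all of Serf2, 5455 bp of exon, had 45, 16, 14 and 56. Counts per base were higher on Gm22953 by 11.65 ± 0.79 on the log2 scale (edgeR estimate ± SE, adjusted p = 2.77e-05). Here and below, the SE was derived as the size of the estimate divided by the square root of the test's F statistic. Gm44364 in H2afj, an H2A variant gene, had 1632, 2065, 1417 and 809 counts against 54, 16, 16 and 22 on the host, a difference of 9.55 ± 0.60. Gm24157 (chr11:52099043-52099153, minus strand) lies in Ppp2ca, the catalytic subunit of protein phosphatase 2A, and had 896, 1330, 873 and 666 counts against 136, 68, 19 and 141. Member and host did not overlap in any of these 3 pairs, although each host is many times longer than its member. Over all 4291 overlapping pairs, every count of the shorter gene lay above every count of the longer in 30.4%, and the reverse held in 21.6%. The 3 members were picked for their high counts, which favours this order, so these shares are no fair comparison. For each of the 3 members the highest count was in replicate 2, the deepest library, and the lowest in replicate 4, the shallowest. For Serf2 and Ppp2ca the highest count was in replicate 4.

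**Figure D2:**
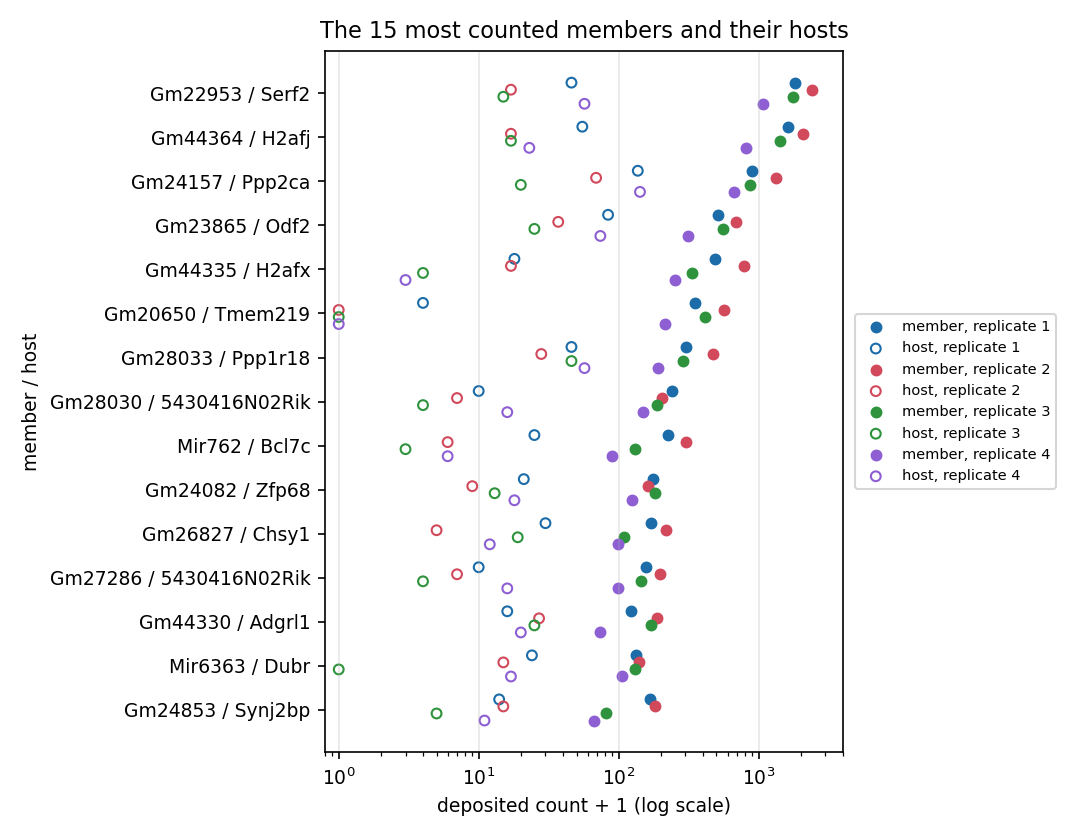
Deposited counts plus 1 (x axis, log scale) of the 15 most counted members (filled) and of their hosts (open) in each library (colours). In all 15 pairs every member value lies to the right of every host value, for example 1070 to 2419 for Gm22953 against 14 to 56 for Serf2. The 15 were picked for high member counts, which favours this order. The 30.4% of all overlapping pairs with this order is thus no fair comparison.

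The next members include other classes of gene. Gm23865, an snRNA locus in the 3′ untranslated region (UTR) of Odf2, a centriole gene, had 512, 685, 553 and 310 counts against 83, 36, 24 and 73. Gm44335 in H2afx, the histone variant phosphorylated at DNA breaks, had 484, 783, 333 and 250 against 17, 16, 3 and 2. Gm20650, a processed transcript with 2 exons that both lie opposite coding sequence of Tmem219 (chr7:126891622-126897236, plus strand, 198 bp of exon), had 348, 561, 410 and 214 counts. Tmem219, which encodes a membrane protein, had 3, 0, 0 and 0. The ratio of counts per base over the 4 libraries was 5915, with an exact 95% interval of 2020 to 28715 for counting error only, and all 3 host counts were in replicate 1. Gm28033 in Ppp1r18, an actin-associated phosphatase subunit, had 303, 469, 286 and 189 counts, and Mir762 in Bcl7c, a chromatin remodelling subunit, had 225, 300, 129 and 89. Their hosts had 27 to 56 and 2 to 24 counts.

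The remaining 7 of the 15 had means between 123.25 and 195 counts. They were Gm28030 and Gm27286, both in the uncharacterised gene 5430416N02Rik, Gm24082 in the zinc finger gene Zfp68, Gm26827 in Chsy1 (chondroitin synthesis), Gm44330 in Adgrl1 (an adhesion receptor), Mir6363 in the long noncoding RNA gene Dubr, and the snoRNA locus Gm24853 in Synj2bp (a mitochondrial outer membrane protein). The log2 density difference in these 7 ran from 8.16 to 10.10. The host 5430416N02Rik held 4 members, all counted, with 524, 567, 525 and 374 counts between them against 9, 6, 3 and 15 for the whole host. The 4 share a host and are not independent cases.

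Most counts on miRNA loci fell on loci that carry only a provisional Gm symbol. Of 71 miRNA members with a Mir symbol, 19 had a count and 11 reached a mean of 10. Of 69 with a Gm symbol, 39 had a count and 22 reached it, and these held 64.4% of all member counts against 10.2% for the Mir group. The 2 groups were not tested against each other. In the Mir group, Mir6340 in Rab22a, an endosomal GTPase, had 110, 140, 105 and 89 counts against 15, 2, 0 and 9. Mir6385 in Pml, the scaffold of nuclear bodies, had 88, 105, 97 and 51 against 33, 9, 8 and 32, and Mir130c in Kdelc2 had 90, 75, 106 and 58 against 1, 5, 3 and 0. Member and host values did not overlap in these 3 pairs, as in 30.4% of all overlapping pairs. The 3 were chosen with their counts known, so that share is no fair comparison. None of the T cell receptor, cytokine signalling, Th2 and effector, or costimulation genes in the fixed lists, and no glycolysis, ribosomal protein or translation factor gene, was a host.

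Each member was set against its host with edgeR's quasi-likelihood test on counts, with gene length and library total as offsets and the library as a block, over all 2974 opposite-strand pairs with at least 20 counts. Of 105 members tested, 66 (62.9%) had more counts per base than the host at an adjusted p under 0.05. The same call was made for the shorter gene in 54.5% of all tested pairs, in 74.7% of the 261 pairs with a nested gene of 200 bp or more, and in 52.2% of pairs that were not nested. The host was denser for 16 members (15.2%), against 22.3%, 13% and 23.5% in those 3 sets. In 11 of the 16 the member had no count, so only the host's counts brought the pair into the test, which fixed the direction. The shorter gene was at 0 for 25 of the 105 members, 219 of all 2974 pairs and 25 of the 261 longer nested pairs. These shares thus depend on the filter on counts. Another 23 members were not called, and 108 had too few counts to be tested, of which 78 had no count on either gene. The share of denser members thus lay above that of all pairs and below that of the longer nested genes. The median log2 density ratio was 6.68 over the tested members, 2.88 over all pairs and 6.29 over the longer nested pairs. With genes at 0 set to a floor of 3 counts over the 4 libraries, these medians were 6.36, 2.91 and 6.09.

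These calls depend on the length term. A fragment is counted when it touches the gene at all, and fragments can be longer than a member. On raw counts with no length term, an alternative added after the data were seen, 43 members were above their host and 34 hosts above their member (43.3% and 30.3% of all pairs). With 200 bases added to both lengths the numbers were 63 and 22. Without any test, the member had more counts than its host in 4 of 4 libraries in 50 of the 213 pairs, against 33.1% of all overlapping pairs. The host had more in 4 of 4 in 36 pairs, against 23.7%. Mir3082 illustrates the point: it had 85, 64, 100 and 68 counts against 2236, 2267, 2015 and 1149 on Jmjd8, yet with 64 bp it was denser by 0.86 ± 0.32 on the log2 scale (edgeR, adjusted p = 0.0381). With 200 bases added to both lengths the host was denser instead (-1.08, edgeR, adjusted p = 0.0154), and on raw counts the difference was -4.57. The call was also lost without replicate 1, 3 or 4 (lowest edgeR adjusted p = 0.0902) and with only nested pairs fitted (0.102). Gm24103 in Aars was the other member called denser whose host was called higher on raw counts (-2.30).

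**Figure D3:**
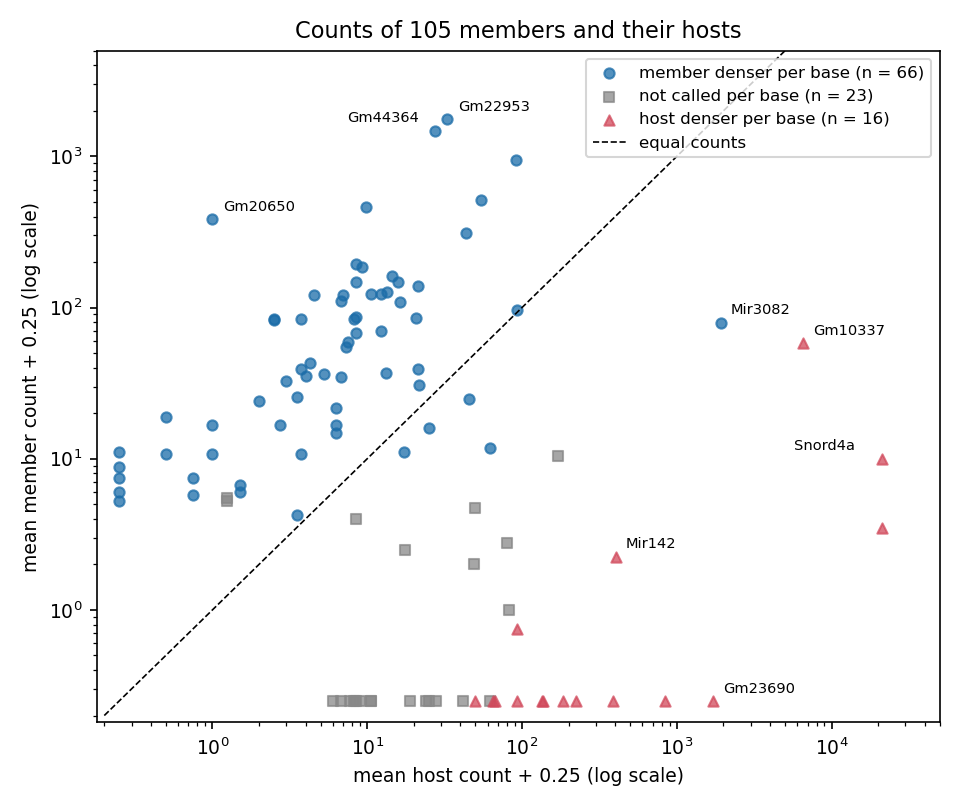
Mean count plus 0.25 of each of the 105 tested members (y axis, log scale) against that of its host (x axis, log scale), marked by the call per base. Most denser members (circles) lie above the line of equal counts, and the 16 members with a denser host (triangles) lie far below it, 11 of them at a count of 0.

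Members opposite coding sequence and UTRs were counted more often than those opposite noncoding exons. Of 69 members opposite coding sequence, 39 (56.5%) had a count and 27 (39.1%) a mean of at least 10. Of 36 opposite a 3′ UTR, 19 and 15 did, and of 11 opposite a 5′ UTR, 6 and 3. Of the 96 opposite exons of noncoding transcripts, 31 (32.3%) had a count and 14 (14.6%) a mean of at least 10. The coding group held 74.2% of all member counts, and 32 of its 34 tested members were denser than the host and 1 host was denser. The noncoding group had 17 denser members and 13 denser hosts among 41 tested. Of 22 tested members opposite a 3′ UTR, 14 were denser, 2 had a denser host and 6 were not called. Of 8 opposite a 5′ UTR, 3 were denser and 5 were not called. Over all tested pairs the shorter gene was denser in 54.5% and the longer in 22.3%. Among all tested members, 5 had a host at 0 (all histone genes) and 25 were at 0 themselves. Such pairs were tested through 1 gene only, which fixed the direction, so the shares over all pairs are no fair comparison. The numbers for the groups are counts and were not tested against each other.

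With each host divided into 3 equal parts from its 5′ end, the 5′ part held 74 members with 70.0% of the member counts. The middle part held 83 members with 17.2%, and the 3′ part 56 members with 12.8%. The 4 members Gm22953, Gm44364, Gm24157 and Gm44335 all lie in the 5′ part. Protein-coding hosts held 131 members and 91.3% of the counts. The 25 members whose host is itself a miRNA gene held 0.0720%.

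The largest group of like sequences was 24 members, 19 of them opposite exons of a histone gene, that resemble each other in sequence. It was found after the values were seen. These members took 21.7% of all member counts, and 15 of the 24 had a count, but nearly all of the counts fell on Gm44364 and Gm44335, the members in H2afj and H2afx. The other 22 had means of 0 to 30.5, led by Gm44313 (40, 48, 25 and 9 counts), which overlaps the 5′ UTR of Trim17. The H2A genes named Hist1h2a and Hist2h2a are replication-dependent histone genes, whose mRNAs end in a stem-loop and carry no poly(A) tail, whereas H2afx can also produce a polyadenylated mRNA. Gm44394, in Hist1h2ae, had 13, 13, 6 and 11 counts, with Hist1h2ae at 0 in 4 of 4 libraries. Counts per base were at least 47.8-fold higher on it than on the host, with the host set at 3 counts over the 4 libraries. Gm44454, in Hist1h2ak, had 6, 24, 1 and 3 counts and was at least 32.3-fold higher on the same floor, or at least 9.49-fold without replicate 2, which held 24 of its 34 counts. Its call was lost without replicate 1 (edgeR, adjusted p = 0.0651) or replicate 2 (0.143). All 8 tested members with a histone host, Gm44454 included, were called denser than it with all 4 libraries. In 5 of these pairs (hosts Hist1h2ae, Hist1h2ag, Hist1h2ai, Hist1h2ak and Hist1h2an) the host was at 0. Such pairs were tested only through the member's counts, which fixed the direction. The share of 54.5% over all tested pairs is thus no fair comparison, and 11 further members with a histone host were not tested. The header shows no option to count fragments that map to several places. The 9 identical members, and the host sequence opposite them, could lose such fragments. The fold bounds on the floor of 3 counts do not cover this loss. How much this lowers the counts of members and hosts was not tested.

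**Figure D4:**
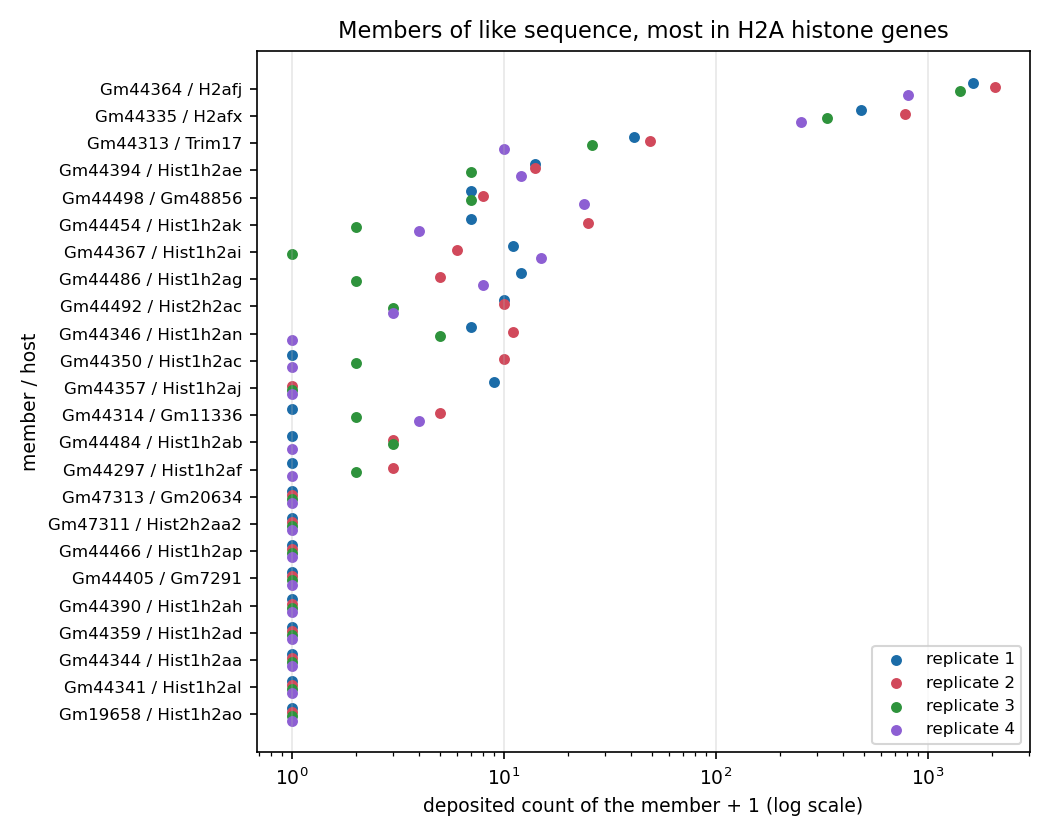
Deposited counts plus 1 (x axis, log scale) of the 24 members of like sequence, with their hosts, in each library (colours). Gm44364 (809 to 2065 counts) and Gm44335 (250 to 783) lie above every value of the other 22, of which 9 have no count.

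Of 8 smaller groups of like sequence, 2 had both members counted, those in the Mex3 and Foxf genes. In the other 6, of 2 to 7 members each, at most 1 member had a count. Gm22721 in Mex3d had 133, 165, 123 and 60 counts and Mir1905 in Mex3a had 46, 39, 31 and 13. Mex3d had 0 to 16 and Mex3a 0 to 6, so both members lay above their hosts in every library, as did the shorter gene in 33.1% of all overlapping pairs. Gm27530 in Foxf1 had 10, 8, 20 and 4 counts and Gm27516 in Foxf2 had 5, 5, 7 and 9, both near the limit of detection, with hosts at 0 to 5. The 3 members in Dleu2, a long noncoding RNA gene that also carries miRNAs, had 6 to 34 counts each against 1 to 13 on the host.

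In 16 pairs the host was denser, and in 14 of these the host also shared exon sequence with another gene on the member's strand. In 8, that other gene shared exon bases with the member too. In 11 of the 16 the member had no count, so the host's counts alone fixed the direction. The host Smarcd3, a chromatin remodelling subunit, had 807, 1123, 863 and 552 counts, while Mir671 (chr5:24592114-24592211, plus strand) had 0 in 4 of 4 libraries. Chpf2, a chondroitin synthesis gene that shares exon bases with Mir671 on its strand and runs opposite Smarcd3, had 7, 4, 10 and 11. The host Dnah14, an axonemal dynein, had 2074, 1861, 1648 and 1266 counts against 0 on the snRNA locus Gm23690, and Lbr, a nuclear envelope gene opposite Dnah14, had 53, 7, 19 and 60. Counts per base on the host were at least 21.3-fold higher than on Mir671 and at least 13.2-fold higher than on Gm23690, with the member set at 3 counts over the 4 libraries. The bound for Mir671 does not cover fragments lost where it overlaps Chpf2. In each of these loci the member and the larger gene on its strand were low and the host was high.

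Ppp2ca shows both arrangements at 1 locus. Gm24157 lies opposite its coding sequence and had 666 to 1330 counts. Mir3061 shares exon bases with Ppp2ca on the same strand, lies opposite 9430098F02Rik, and had 0 in 4 of 4 libraries while 9430098F02Rik had 480, 454, 357 and 258. Ppp2ca itself had 19 to 141. Counts per base on 9430098F02Rik were at least 15.7-fold higher than on Mir3061 on the same floor. This bound does not cover fragments lost where Mir3061 overlaps Ppp2ca. Gm27920, opposite Gm4129 and on the strand of Usp15, and Gm47279, opposite 1700030C12Rik and on the strand of Ahsa2, were also at 0 in 4 of 4 libraries, with 129 to 225 and 151 to 352 counts on the hosts. Both share exon bases with the named gene of their strand, so the same limit holds for them. Ahsa2 was the exception among the other genes: with 1565 to 2584 counts it lay above the host, whereas in 13 of the 14 pairs the other gene was below the host in 4 of 4 libraries.

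The largest host counts of all were on Tlcd1, with 26762, 24178, 19634 and 13890. Its members are the snoRNA genes Snord4a (12, 8, 4 and 15 counts) and Snord42a (0, 9, 4 and 0), which lie on the strand of the ribosomal protein gene Rpl23a (1319, 423, 361 and 747 counts). Tlcd1 was denser by 4.99 ± 0.50 than Snord4a and by 6.72 ± 0.85 than Snord42a (log2 scale, edgeR, adjusted p = 7.65e-05 and 0.000213). Gm10337, a short protein-coding gene in Map3k12, had 56, 80, 62 and 33 counts against 8191, 7172, 6146 and 4583, and its call was lost without replicate 1 (edgeR, adjusted p = 0.0595) and with only nested pairs fitted (0.0533). Map3k12 also runs opposite Pcbp2, an RNA-binding protein gene with 180 to 351 counts. Mir142 gives rise to a miRNA abundant in blood cells and is 1 of the 2 cases whose host had no opposite gene outside the members. It had 7, 1, 0 and 0 counts, and Mir142b on the other strand had 428, 471, 526 and 186, so the groups did not overlap, as with the longer gene above the shorter in 21.6% of all overlapping pairs. The other case was Gm23711, at 0 against 7 to 93 on Gm26516, whose call was lost without replicate 2 or 3 (edgeR, adjusted p = 0.0785 and 0.0824).

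Few members that overlap a gene of their own strand were counted. Of 21 members that share exon bases with such a gene, 2 had a count, and among the 16 tested 1 was denser than the host and 8 had a denser host. The denser 1 was Mir3082 in Jmjd8, whose call turned with 200 bases added to both lengths. Of the other 192, 93 had a count, and among the 89 tested 65 were denser and 8 had a denser host. The counting command set no option to count a fragment that overlaps 2 genes of 1 strand, and its part in these numbers was not tested. For 147 members the host had no opposite gene outside the members, although such a host may hold several members. Of these, 57 were tested, of which 47 were denser and 2 had a denser host. For 66 the host had an opposite gene outside the members. Of these, 48 were tested, of which 19 were denser and 14 had a denser host. The figures over all tested pairs were 54.5% and 22.3%, and these groups were not tested against each other. With only members that share no exon base with any gene but the host, 63 members and 8 hosts were denser.

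Of the 118 members without a count, 78 had a host without one. The 6 miRNA loci in Rtl1 (Mir127, Mir136, Mir431, Mir432, Mir433 and Mir434), an imprinted gene with a role in the placenta, had no count, and neither had Rtl1. The 6 in Nlrp12 (Mir291a, Mir291b, Mir292, Mir293, Mir294 and Mir295), a cluster known from embryonic stem cells, had none, with 1 count on the host. The same held for all 6 members in keratin genes and 4 in olfactory receptor genes, whose hosts were at 0. A member with a count whose host had none was seen in 15 pairs, with means of at most 10.75 counts, and a member at 0 with a counted host in 40.

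Between replicates, 54 of the 59 members with a mean of at least 10 counts varied more than Poisson sampling allows (chi-square test with TMM-scaled library sizes, adjusted p under 0.05 over all genes). That was 91.5%, near the 88.2% of all 7752 genes tested. The coefficient of variation (CV) of CPM over the 46 members with a mean of at least 20 counts had a median of 0.267 and ran from 0.0840 to 0.622, against a median of 0.376 over the 5335 genes at that level. Mir6340, Mir6363 (133, 139, 130 and 104 counts) and Gm28030 (240, 204, 188 and 148) varied least. The widest spread was on Gm27735 in Znrd1as, with 53, 21, 15 and 13 counts. It was followed by Gm25953 in Zfp248 (14, 48, 38 and 46), Gm27997 in 5430416N02Rik (37, 64, 96 and 73), Gm44313 and Mir1957b in Wdr59 (96, 142, 66 and 31). The high library differed among these 5 members.

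The share of a pair's counts that fell on the member differed between libraries in 53 of the 105 tested members (chi-square test of homogeneity, adjusted p under 0.05 over 2973 pairs), or 50.5% against 68.3% of all pairs. This test covers counting error only, so differences between separate samples are called often. Over all 105 tested members, the median share among pairs with a count was 78.8%, 86.9%, 86.4% and 72.4% in replicates 1 to 4. Over the 53 called it was 85.3%, 94.5%, 94.6% and 78.2%. The lowest share was in replicate 1 or 4 in 46 of the 53 and the highest in replicate 2 or 3 in 37. For Gm24157 the pair split 896 to 136 in replicate 1 and 873 to 19 in replicate 3. For Gm22249, an snRNA locus in Wdr1, it split 87 to 128, 130 to 55, 113 to 37 and 56 to 149, so that the host was higher in replicates 1 and 4 and the member in replicates 2 and 3. Replicates 1 and 4 were also those with the higher T cell marker sums. The median log2 deviation of a gene's CPM from its mean over libraries was 0.25, -0.22, -0.20 and 0.37 over all 7752 genes, and -0.08, 0.25, 0.12 and -0.25 over the 59 members. The part of these differences between libraries in the shares was not tested.

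**Figure D5:**
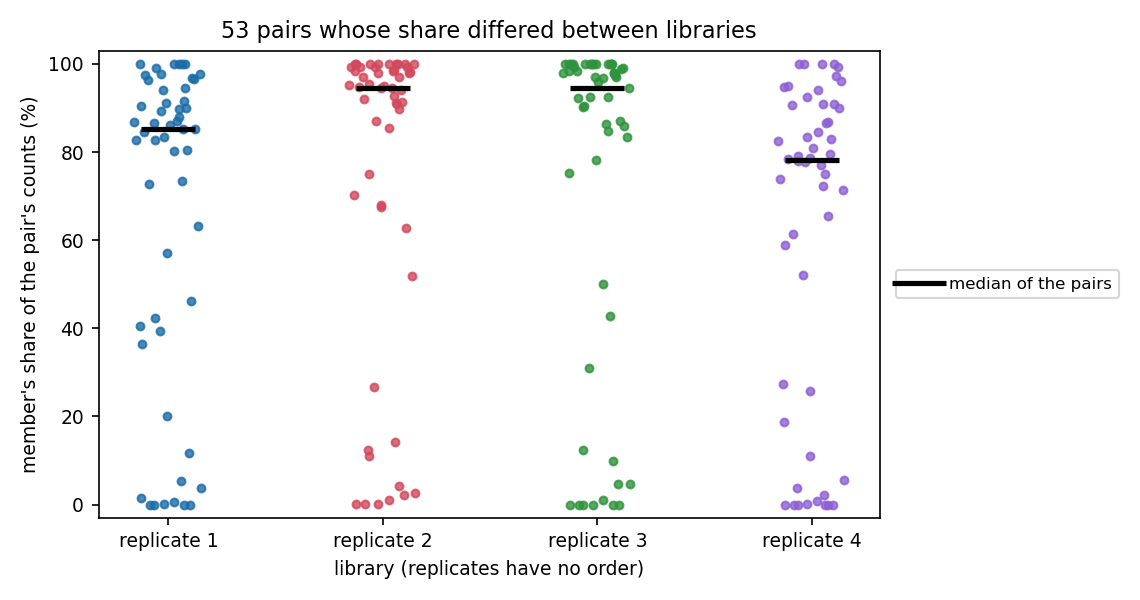
Share of the pair's counts on the member (y axis, percent) in each library (x axis) for the 53 pairs whose share differed between libraries, with the median (black bar). The medians are 94.5% and 94.6% in replicates 2 and 3, and 85.3% and 78.2% in replicates 1 and 4.

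At the limits of the rule, genes with and without counts lay on both sides. Just inside the length limit, Gm20650 (198 bp) had the counts given above, and Gm27502 in Six3os1 and Gm44857 in Olfr694 had none, as had their hosts. Gm10197 (201 bp, in Mxi1) was just outside with 573, 776, 681 and 420 counts against 27, 13, 8 and 38. Gm20529 (203 bp, in Rnf123) had 159, 206, 152 and 92 against 183, 181, 159 and 100. Snora73a (205 bp, in Gm17300) had none against 2463 to 3735. At the limit of overlap, Gm27849 (80% in Nespas) had 1 count in all, Gm44450 (81.6% in Adgrl1) had 37, 61, 21 and 38 and Gm22892 (81.9% in Grin2b) had none. Just outside, Gm23464 (79.6% in S100a3) had none, and Gm6293 (78.5% in 4930481A15Rik) had 23, 28, 14 and 8 against 61 to 133. Gm20490, with 79.3% in Rbm38, had 602, 794, 630 and 442 counts against 27, 4, 3 and 20.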

How the data were processed

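The deposited values are raw fragment counts per gene, made by the authors with featureCounts 1.4.6-p4 on sorted STAR alignments of paired ends, with exons of GENCODE M13 on mm10 and strand option 1, per the file headers. For STAR, the version was not given in the sources used here. Replicate numbers are the labels'. Gene names and host regions came from GENCODE M21 (50376 of 50600 identifiers and all 213 members matched), overlaps from bedtools 2.31.1, and sequences from M21 transcripts and RefSeq. Pairs were tested with edgeR 4.0.16 (R 4.3.3), with DESeq2 1.42.0 as the alternative, and the chi-square tests with scipy 1.17.1. p-values were adjusted by Benjamini-Hochberg at 0.05 over all genes or pairs tested. The tests were tried on simulated counts with less spread than these data, so the trial does not show their error rates here. The members and lists were chosen with earlier results of these data known. Members named are the 15 most counted, the 5 with the largest call for the host, the widest and narrowest spread, the most counted miRNAs, snoRNAs and histone hosts, and the genes at the rule's limits. The others named were chosen after their values were seen. Because 1 donor identifier covers 4 replicates, p-values measure the spread between these samples only.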

Additional observations from a re-analysis of the deposited data

Results flagged for a closer look

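Of 43 sets of 4 library values examined, 3 had a value far from the other 3, and chance gives about 1 in 20. For Gm27735 in Znrd1as, replicate 1 was the high library (53 counts against 21, 15 and 13), and its gap to the next value took 0.944 of the whole range in CPM. For Mir142, replicate 1 was also the high library (7 counts against 1, 0 and 0), with a gap of 0.863 of the range. For the share of short genes counted among those that share an own-strand exon, replicate 4 had 0% and the other 3 libraries 0.152% each, so the gap was the whole range (1). That share rests on 0 to 2 counts a library.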

How the results depend on the processing

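Of the 82 members called against their host, none turned under DESeq2, without the library as a block, with other filters (64 of the 82 fitted at 100 counts), with only nested pairs fitted or without any 1 library. On raw counts with no length term 5 turned, 2 of them with a call for the host (Mir3082 at -4.57 and Gm24103 at -2.30), and 21 in all were no longer called. With 200 bases added to each length Mir3082 turned (-1.08) and 2 members were no longer called. Between 3 and 9 were no longer called without 1 library. Numbers of calls stayed within 1.5 times of the 66 members and 16 hosts denser, except in these cases. On raw counts with no length term 43 members and 34 hosts were called, with members that share no exon with another gene 8 hosts were, and with a mean of at least 50 counts all 33 members tested varied beyond Poisson sampling, from fewer genes tested. Leaving out each library gave 58 to 65 denser members, 15 to 17 denser hosts, 44 to 48 members of wide spread, 38 to 45 pairs with a differing share, and 0.545% to 0.619% of counts on members. Without the library as a block, 71 members and 21 hosts were denser. Of the named pairs, Gm22249, Gm25953, Gm27516, Gm44313, Gm44450 and Gm44454 lost their call on raw counts, and those that lost it otherwise are given beside their values. At the depth of these libraries, members with means under 10 counts, 36 of the 95 counted, held 1.26% of member counts and are close to the limit of detection.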
